A study of Mus musculus with 3 samples.

Results

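Cluster 3 of the Mid_Ob library is a group of nuclei with the transcripts of the epididymal duct, found in fat taken from beside that duct. It was chosen by its column in the deposited table of the Mid_Ob library, 1 of 11 clusters of that library and of 46 in the whole series. The recovered unique molecular identifiers (UMIs, single transcript molecules) of cluster 3 came to 9742452, which is 16.89% (16.885 to 16.905, exact binomial 95% interval) of the 57665213 UMIs of the library. Of 26353 genes listed for the library, and of 29625 in the series, 22730 had at least 1 UMI in cluster 3. The label of the cluster rests on Adam28, Ros1, Cnksr2 and Frmpd4, and these genes were checked in every cluster before other results.

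The study followed male C57BL/6J mice in 3 groups. Ctrl mice ate an ordinary diet. Mid_Ob and Ob mice both ate food with 60% fat, and were sorted into these groups by how far their body weight exceeded the control mean. The age at sampling is not given in the sources used here. Epididymal fat of 8 mice was mixed into 1 tube per group, so each group is 1 library of nuclei, with no replicate and no test between groups. The depth was 53980929 UMIs for Ctrl, 57665213 for Mid_Ob and 111595518 for Ob, and the median nucleus had 4472, 6676 and 3946 UMIs. The source named by the labels is adipose tissue of the epididymis, a fat pad that lies against the duct.

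The epididymis is a single coiled tube that carries sperm from the testis, and its epithelium is divided into the initial segment, caput, corpus and cauda. Principal cells, the main cell type of its lining, secrete a different mixture of lipocalins, defensins, protease inhibitors and enzymes in each segment, and sperm mature as they pass through them. In mice the initial segment depends on fluid from the testis. NELL2, a secreted testis protein, reaches the receptor kinase ROS1 on the duct cells through the lumen, and ERK signalling and transcription factors of the ETV family act below it.

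Levels are given in CPM, the UMIs of a gene in a cluster scaled to a total of 1000000. The 95% intervals of ratios and levels, in parentheses, are for counting error alone. Higher or lower, where genes are counted, means a ratio over 2-fold and 50 or more counts in both sides together. The cluster was made from these same genes in these same nuclei, so every contrast between clusters is a description and carries no test. A level per cluster is not corrected for gene length, and levels are compared here between clusters and not between genes.

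Of the 4 label genes, only Frmpd4 was over 2-fold higher in cluster 3 than in cluster 2. Frmpd4 encodes a scaffold protein with FERM and PDZ domains, studied mostly at synapses. It stood at 5805 CPM (5757 to 5853) in cluster 3, 633 CPM (616 to 651) in cluster 2, and between 104 and 1187 CPM, with a median of 180.4 CPM, in the 9 other clusters. It was 9.16-fold (8.90 to 9.44) higher in cluster 3 than in cluster 2, and cluster 11 was the highest of the 9 other clusters. Cnksr2 encodes a scaffold of the Ras and ERK pathway that is also best known from neurons. It stood at 3235 CPM (3199.6 to 3271) in cluster 3, 3593 CPM (3550.5 to 3635) in cluster 2, and between 153 and 785 CPM, with a median of 214 CPM, in the 9 other clusters. Its ratio of cluster 3 over cluster 2 was 0.901 (0.886 to 0.915), so Cnksr2 marked both duct clusters at nearly the same level.

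Ros1 and Adam28 were higher in cluster 2. Ros1, the receptor kinase of the initial segment, stood at 697 CPM (680.3 to 714) in cluster 3, 1246 CPM (1221 to 1271) in cluster 2, and between 26.1 and 192 CPM, with a median of 48.3 CPM, in the 9 other clusters. It was 1.79-fold (1.73 to 1.84) lower in cluster 3 than in cluster 2, and higher in cluster 3 than in every one of the 9 other clusters. Adam28, a membrane protease of the ADAM family, stood at 662 CPM (646 to 679) in cluster 3, 5271 CPM (5220.3 to 5323) in cluster 2, and between 102 and 642 CPM, with a median of 189.9 CPM, in the 9 other clusters. It was 7.96-fold (7.75 to 8.17) lower in cluster 3 than in cluster 2, and cluster 5 lay at almost the level of cluster 3. Over the pooled other clusters the log2 ratio of Adam28 was -0.67, and 1.45 without cluster 2 in that pool. Cluster 2 held 71.5% of all Adam28 UMIs of the library and cluster 3 held 11.4%. Among 4117 named genes with at least 500 counts in cluster 3, ranked by their ratio over the pooled other clusters, Frmpd4 came at rank 16, Cnksr2 at 228, Ros1 at 428 and Adam28 at 3682.

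**Figure D1:**
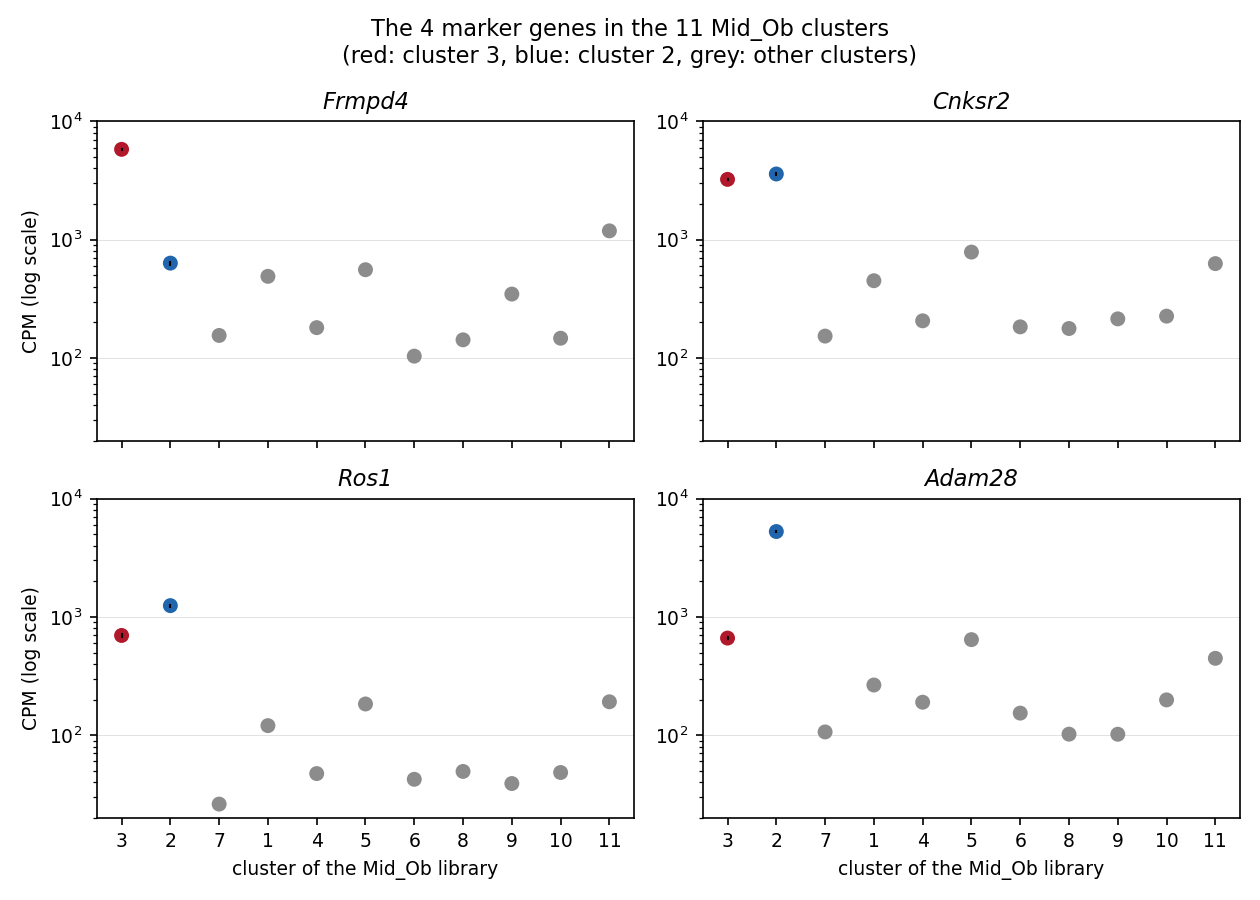
CPM (log axis) of the 4 label genes in the 11 clusters of the Mid_Ob library, with cluster 3 in red, cluster 2 in blue and the other clusters in grey. Black lines are exact Poisson 95% intervals for clusters 3 and 2, shorter than the points they are drawn on. Frmpd4 stood at 5805 CPM in cluster 3 and 633 CPM in cluster 2, and Adam28 the other way round at 662 and 5271 CPM.

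The genes whose pattern over the 11 clusters was most like each label gene were picked by Pearson's r of log2(CPM + 1) over 11369 genes that reached 500 counts, and some of the 5 nearest to each are given. The 11 points share 1 library and the clustering itself, so r is a description. Ros1 and Cnksr2 were each other's near neighbours (r = 0.99), and Crisp4, a secreted protein of the CRISP family that binds sperm, followed both (r = 0.99 with each). Crisp4 stood at 601 CPM in cluster 3, 710.5 CPM in cluster 2 and 24.4 to 132 CPM in the 9 other clusters. Closest to Frmpd4 were Nxf3 (r = 0.96), an mRNA export factor, Defb13 (r = 0.96), a beta-defensin, and Tfap2b (r = 0.95), a transcription factor of the AP-2 family. Adam28 was followed by Shc4 (r = 0.99), an adaptor of receptor kinases, and Gria2 (r = 0.99), a glutamate receptor subunit.

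Genes of the caput were high in cluster 3 against the pooled other clusters, and most genes of the initial segment were low against cluster 2. Against cluster 2 the caput genes went both ways. These lists were drawn up from the known biology of the mouse duct, with earlier results of these data already known. Over the 14212 genes that reached 50 counts against cluster 2, 10.2% were over 2-fold higher and 6.16% over 2-fold lower in cluster 3 than in cluster 2, and the median log2 ratio was 0.12. Over the pooled other clusters, 11.3% of 17783 genes were higher and 21.2% lower, with a median of -0.02. That pool adds up UMIs, so large clusters weigh most, and the adipocyte-like cluster 1 alone holds 46.9% of the UMIs of the library. Every count of list or family members in these contrasts is to be read beside these shares. Fold changes are given without correction for these medians.

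Of 12 initial segment genes with enough counts, 2 were higher in cluster 3 than in cluster 2, 9 were lower and 1, Ros1, lay between, with a median log2 ratio of -2.31. These 9 of 12 lower genes compare with 6.16% of all genes. Lcn8, a lipocalin of the initial segment, stood at 587 CPM in cluster 3, 3858 CPM in cluster 2 and 147 to 1769 CPM in the 9 other clusters, and was 6.57-fold (6.39 to 6.76) lower. Etv5, an ETS transcription factor of this segment, stood at 164 CPM in cluster 3, 1073 CPM in cluster 2 and 12.7 to 119.5 CPM in the 9 other clusters, and was 6.55-fold (6.20 to 6.91) lower. Cluster 3 was therefore far under cluster 2 in both genes, while it lay above the 9 other clusters in Etv5 and between them in Lcn8. Etv4 was 7.53-fold (6.70 to 8.48) lower, Rnase10, a secreted protein of the RNase A family, 6.04-fold (5.40 to 6.76) lower, and the cystatin relatives Cst8 and Cst11 4.64-fold and 5.27-fold lower. Mfge8, a milk fat globule protein that binds cell surfaces, was 4.51-fold lower, Dusp6, an ERK phosphatase, 5.58-fold lower, and Srd5a1, a steroid 5-alpha-reductase, 3.18-fold lower. The 2 exceptions were Ggt1, a gamma-glutamyl transferase of glutathione breakdown, at 67.6 CPM in cluster 3 and 11.9 CPM in cluster 2, and Lrp8, an endocytic receptor for selenoprotein P, at 31.5 CPM in cluster 3 and 7.66 CPM in cluster 2. Against the pooled other clusters 3 of 13 were higher, 2 lower and 8 between. Without cluster 2 in that pool the counts came to 6 higher and 1 lower. Penk had 1.23 CPM in cluster 3.

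The 11 caput genes split into 3 groups. Lcn5, Rnase9 and Ptgds were over 2-fold higher in cluster 3 than in cluster 2. Lcn5, a lipocalin that binds retinoic acid, stood at 3502 CPM in cluster 3, 279 CPM in cluster 2 and 165 to 2307 CPM in the 9 other clusters, and was 12.5-fold (12.01 to 13.1) higher. Rnase9, another secreted member of the RNase A family, stood at 335 CPM in cluster 3, 39.6 CPM in cluster 2 and 25.2 to 271 CPM in the 9 other clusters, and was 8.47-fold (7.53 to 9.55) higher. Ptgds, the lipocalin-type prostaglandin D synthase, was 3.69-fold (3.12 to 4.39) higher. Lcn9, Lcn10 and Ovch2 were lower, by 6.86-fold, 3.81-fold and 6.04-fold. Ovch2 is a secreted protease that in mice is needed for sperm maturation, and it is also on the ROS1 pathway list used here.

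The other 5 caput genes lay within 2-fold of cluster 2. Of all 11 caput genes, 3 were highest in cluster 3, 5 in cluster 2 and 3 in cluster 5. Adam7, a sperm-binding ADAM protein of the caput, stood at 4512 CPM in cluster 3, 4653 CPM in cluster 2 and 269.7 to 1665 CPM in the 9 other clusters. Gpx5, a secreted glutathione peroxidase, stood at 1487 CPM in cluster 3, 1191 CPM in cluster 2 and 316 to 3285 CPM in the 9 other clusters, with the highest level in cluster 5. Spag11b, a defensin-like sperm-binding protein, stood at 1121 CPM in cluster 3 and 727 CPM in cluster 2, Defb41 at 529 CPM in cluster 3 and 640.3 CPM in cluster 2, and Lcn6 at 63.7 CPM in cluster 3 and 37.8 CPM in cluster 2. Against the pooled other clusters 8 of the 11 caput genes were higher in cluster 3 and none of the 11 lower, with a median log2 ratio of 1.83. Cluster 3 lay above all of the 9 other clusters in 6 of the 11.

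Genes of the corpus and cauda were mixed. Of 4 with enough counts 1 was higher in cluster 3 than in cluster 2, 2 lower and 1 between. Ces5a, a secreted carboxylesterase, stood at 1133 CPM in cluster 3, 60.4 CPM in cluster 2 and 26.2 to 156 CPM in the 9 other clusters, and was 18.8-fold (17.1 to 20.6) higher. Crisp1, a secreted protein that coats sperm, stood at 14.5 CPM in cluster 3 and 88.1 CPM in cluster 2, and was 6.09-fold (5.07 to 7.35) lower. Of the HOX genes, which keep the position of a cell along the body, Hoxd9 stood at 26.4 CPM in cluster 3 and 18.3 CPM in cluster 2, Hoxa9 at 1.95 CPM in cluster 3 and 5.71 CPM in cluster 2, and Hoxa10 and Hoxd10 at 0.205 and 0.308 CPM in cluster 3.

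By these lists the genes of cluster 3 point to the caput beyond the initial segment, and those of cluster 2 to the initial segment. The lists summed to 1880 CPM in cluster 3 and 7940 CPM in cluster 2 for the initial segment, to 12377 and 12319 CPM for the caput, and to 1177 and 176 CPM for the corpus and cauda, of which Ces5a made up 1133 CPM in cluster 3. The caput list did not separate clusters 3 and 2 by its sum, only by which members were high. Lcn9 and Ovch2 gave 3163 and 1290 CPM of that sum in cluster 2, and 461 and 214 CPM in cluster 3. Lcn5 went the other way, with 279 CPM in cluster 2 and 3502 CPM in cluster 3. The sums therefore depend on which genes are placed in the caput list. Nor were high sums limited to these clusters. Cluster 5, rich in mitochondrial RNA, summed to 10036 CPM for the caput and to 3330 CPM for the initial segment, the latter above cluster 3. In the remaining clusters the caput sum reached at most 2741 CPM, in cluster 10. No position in the duct was measured, so the segment is read from gene names alone.

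**Figure D2:**
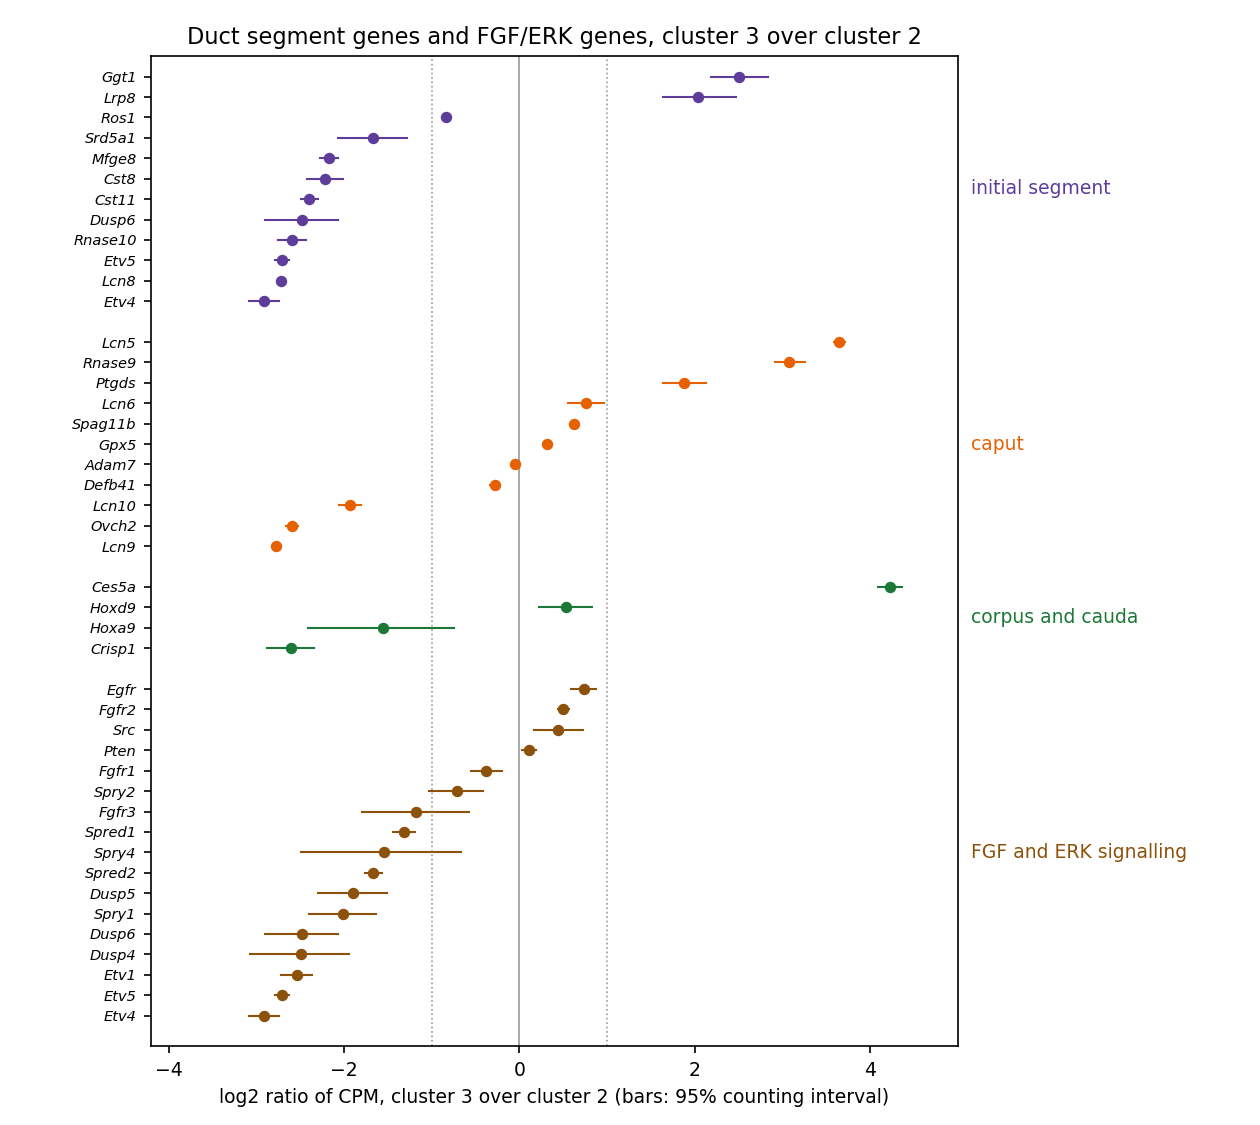
Log2 ratio of CPM, cluster 3 over cluster 2, for each gene that reached 50 counts, grouped by list. Points are ratios, bars are 95% counting intervals, and dotted lines mark 2-fold. Initial segment genes lie mostly left of the lower line (median -2.31), caput genes lie on both sides, and Ces5a is the point farthest right at 4.23.

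General markers of the duct lining were shared by both clusters and by cluster 7. The 12 genes summed to 4671 CPM in cluster 3, 7924 CPM in cluster 2 and 5273 CPM in cluster 7. Cluster 3 lay above all of the 9 other clusters in 4 of the 12. Of 12 such genes 1 was higher in cluster 3 than in cluster 2, 3 were lower and 8 lay between, and over the pooled other clusters 6 were higher and none of the 12 lower. Pax8, a transcription factor of the duct, stood at 529 CPM in cluster 3 and 880.4 CPM in cluster 2, and its relative Pax2 at 555 CPM in cluster 3, 101 CPM in cluster 2 and 7.16 to 182 CPM in the 9 other clusters. Pax2 was 5.49-fold (5.09 to 5.93) higher and was the exception. Adgrg2, an adhesion receptor needed for fluid uptake upstream of the duct, was 2.48-fold (2.44 to 2.53) lower, Cftr, a chloride channel, 4.94-fold (4.65 to 5.25) lower, and Cdh1, E-cadherin, 2.02-fold (1.86 to 2.21) lower. Aqp9, a water and glycerol channel of principal cells, stood at 101 CPM in cluster 3 and 139 CPM in cluster 2. The epithelial genes Epcam, Krt8 and Krt18 stood at 74.4, 24.3 and 35.2 CPM in cluster 3 and at 78.4, 21.8 and 33.7 CPM in cluster 2.

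Other cell types of the duct and its surroundings were near the level of unrelated clusters. The 7 basal cell genes summed to 174 CPM in cluster 3 and 439 CPM in cluster 2, against 61.7 to 858 CPM over the 10 clusters other than 3, and most of this was Trp63, at 114 CPM in cluster 3 and 324 CPM in cluster 2, while Krt5 and Krt14 were at 1.23 and 1.54 CPM. The 7 clear and narrow cell genes summed to 144 CPM in cluster 3 and 197 CPM in cluster 2, against a highest sum of 592 CPM in cluster 7. The 6 ciliated cell genes summed to 46.1 CPM in cluster 3, 47.8 CPM in cluster 2 and 2538 CPM in cluster 11. The 8 efferent duct genes summed to 570 CPM in cluster 3, 286 CPM in cluster 2 and 5716 CPM in cluster 7. The 5 seminal vesicle genes summed to 0.205 CPM in cluster 3, with 3 of 5 at 0, the 5 germ cell genes to 4.62 CPM, the 4 Leydig cell genes to 13.9 CPM with 2 of 4 at 0, and the 4 Sertoli cell genes to 35.9 CPM.

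Transcripts of fat tissue were present in cluster 3 at a low level. The 7 adipocyte genes summed to 423 CPM in cluster 3, 321 CPM in cluster 2 and 6209 CPM in cluster 1, and all 7 were over 2-fold lower in cluster 3 than in the pooled other clusters. The 6 macrophage genes summed to 327 CPM in cluster 3, 254 CPM in cluster 2 and 6568 CPM in cluster 4, and all 6 were lower in the same contrast. The 4 endothelial genes summed to 24.9 CPM in cluster 3 and 1114 CPM in cluster 9, the 5 mesothelial genes to 72.0 CPM and 1294 CPM in cluster 6, the 4 pericyte and smooth muscle genes to 15.5 CPM and 508 CPM in cluster 9, and the 4 lymphocyte genes to 448 CPM, against 771 CPM in cluster 2, 3592 CPM in cluster 10 and 41.6 to 218 CPM in the other 8 clusters. Skap1, an adaptor of T cells, gave 429.8 CPM of this sum in cluster 3 and 749 CPM in cluster 2. The 5 fibroblast or progenitor genes summed to 709 CPM in cluster 3, of which Dpp4, a membrane peptidase also made by epithelia, gave 603 CPM, against 102 CPM in cluster 2. The share of mitochondrial UMIs was 0.23% in cluster 3, 0.19% in cluster 2 and 2.98% in cluster 5, the highest of the library. How much of these levels was RNA of other nuclei was not tested.

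The 20 leading genes of cluster 3 included secreted proteins, enzymes, transporters and nuclear proteins. They are the named genes with the highest ratio over the pooled other clusters among those with at least 500 counts in cluster 3, and the ratios, from 11.5-fold for Ido1 to 20.7-fold for Pak7, chose them. All 20 were highest in cluster 3 of the 11 clusters. In 14 of 20 the next highest of the 9 clusters other than 2 and 3 was cluster 5, rich in mitochondrial RNA. Together they summed to 19803 CPM in cluster 3, 1665 CPM in cluster 2 and 602 to 5029 CPM in the 9 other clusters. The sum in cluster 2 was 8.41% of that in cluster 3, and the lowest sum, in cluster 6, was 3.04% of it. Cluster 2 lay under the highest of the 9 other clusters in 19 of the 20 genes, with Ido1 the exception.

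The secreted proteins among them were abundant. Pate13, a small secreted protein of the PATE family, stood at 3357 CPM in cluster 3, 186 CPM in cluster 2 and 111 to 1012 CPM in the 9 other clusters. Epp13, an epididymal secreted protein, stood at 1172 CPM in cluster 3, 81.3 CPM in cluster 2 and 21.7 to 226 CPM in the 9 other clusters. Both were far above cluster 2, as were the scarcer ones. Defb13, a beta-defensin, stood at 208 CPM in cluster 3, 18.8 CPM in cluster 2 and 3.82 to 31.7 CPM in the 9 other clusters. Rnase13 stood at 84.7 CPM in cluster 3, 5.84 CPM in cluster 2 and 3.79 to 64.03 CPM in the 9 other clusters. Lrcol1, a colipase-like protein, stood at 312 CPM in cluster 3, 21.03 CPM in cluster 2 and 7.01 to 93.9 CPM in the 9 other clusters. Pate13 and Lcn5 had high levels in cluster 5 as well, so cluster 3 exceeded it by less than it exceeded cluster 2.

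Enzymes, transporters and channels made up a second group. Enpp1, which splits extracellular ATP to pyrophosphate, stood at 1213 CPM in cluster 3, 111 CPM in cluster 2 and 33.8 to 166 CPM in the 9 other clusters. Ido1, which starts the breakdown of tryptophan, stood at 624 CPM in cluster 3, 105 CPM in cluster 2 and 9.84 to 91.8 CPM in the 9 other clusters. Its relative Ido2, picked after its values were seen, stood at 83.96 CPM in cluster 3, 6.10 CPM in cluster 2 and 0.65 to 17.1 CPM in the 9 other clusters. Cluster 3 lay well above every other cluster in these 3 enzymes. Atp4a, the catalytic subunit of the proton and potassium pump of the stomach, stood at 73.5 CPM in cluster 3, 4.67 CPM in cluster 2 and 0 to 36.3 CPM in the 9 other clusters. Slc34a2, a sodium and phosphate cotransporter, stood at 53.2 CPM in cluster 3, 3.12 CPM in cluster 2 and 1.69 to 28.7 CPM in the 9 other clusters. The gap to the next cluster was smaller in Atp4a and Slc34a2, where cluster 5 or cluster 11 came closest. Ryr3, an intracellular calcium release channel, stood at 71.2 CPM in cluster 3, 4.41 CPM in cluster 2 and 0.428 to 8.30 CPM in the 9 other clusters. Prdx6b, a close relative of Prdx6, stood at 56.5 CPM in cluster 3, 3.37 CPM in cluster 2 and 0 to 17.1 CPM in the 9 other clusters, and reads of such near copies may be shared in the authors' counting.

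Signalling and nuclear proteins formed the third group. Pak7, a p21-activated kinase, stood at 121 CPM in cluster 3, 5.58 CPM in cluster 2 and 0.282 to 14.9 CPM in the 9 other clusters, and was 20.7-fold (18.2 to 23.7) higher than in the pooled other clusters. Cpne5, a calcium-dependent membrane-binding protein, stood at 114 CPM in cluster 3, 6.62 CPM in cluster 2 and 0.856 to 19.2 CPM in the 9 other clusters. Asb11, a substrate adaptor of ubiquitin ligases, stood at 113 CPM in cluster 3, 7.40 CPM in cluster 2 and 3.42 to 43.99 CPM in the 9 other clusters. All 3 were scarce in cluster 2. Fam189a1 stood at 267 CPM in cluster 3, 10.1 CPM in cluster 2 and 2.55 to 61.8 CPM in the 9 other clusters, and had the largest ratio over cluster 2 of the named genes that reached 500 counts, 26.4-fold (21.04 to 33.4). Both transcription regulators were low in every cluster but 3. Tfap2b, of the AP-2 family, stood at 326 CPM in cluster 3, 23.6 CPM in cluster 2 and 4.28 to 40.6 CPM in the 9 other clusters. Tox3, an HMG-box protein, stood at 1197 CPM in cluster 3, 94.1 CPM in cluster 2 and 34.4 to 122 CPM in the 9 other clusters.

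**Figure D3:**
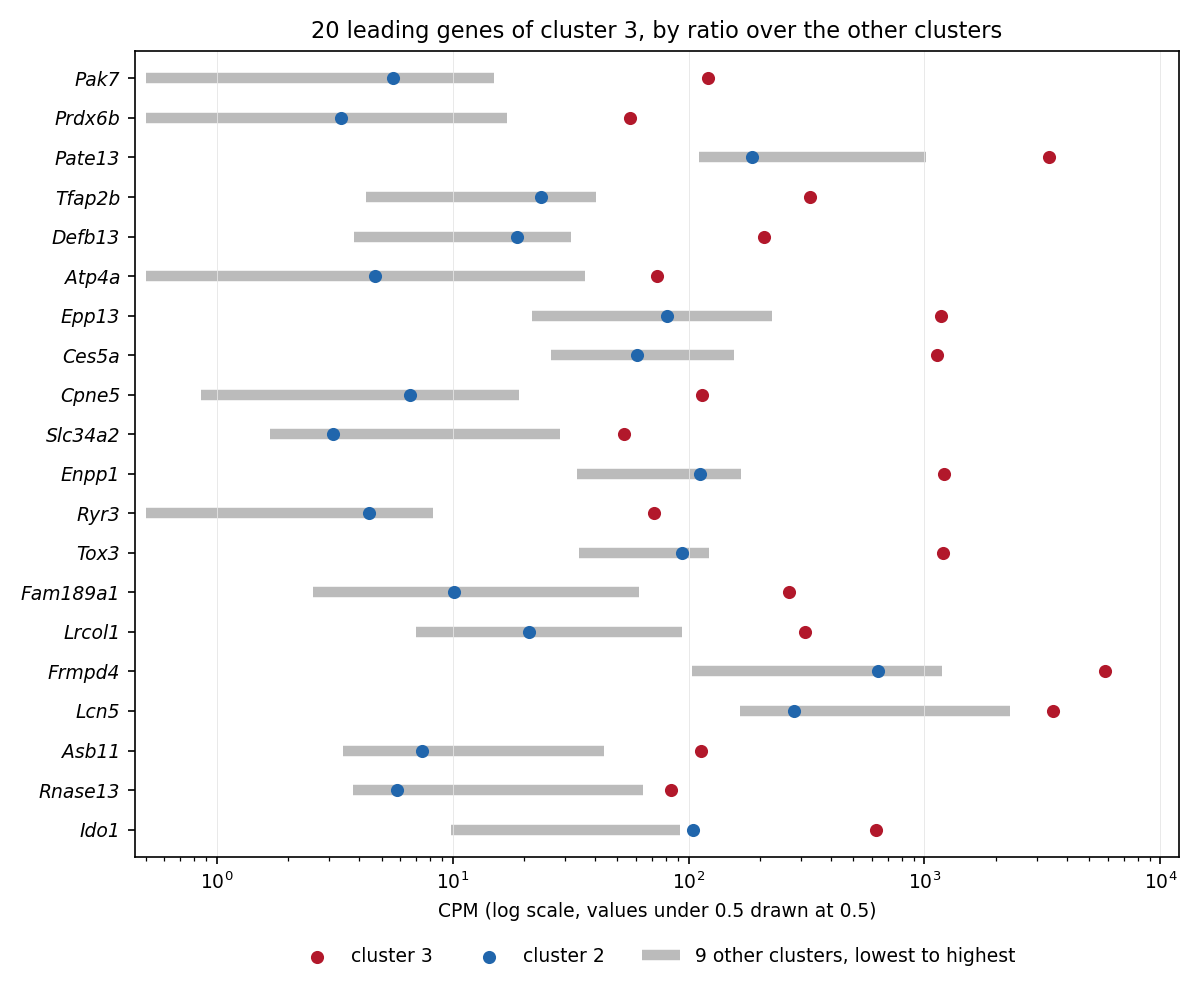
CPM (log axis) of the 20 leading genes of cluster 3, with cluster 3 in red, cluster 2 in blue and grey bars from the lowest to the highest of the 9 other clusters. In each row the red point lies right of the bar, and in each row except Ido1 the blue point lies within it.

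RefSeq windows of 250 bases before the start were found for 17 of the 20 leading genes, 20 windows in all. GCCNNNGGC, the motif of AP-2 factors, was in 4 of 20 windows (20%), against 13.7% of 32851 windows of all genes. CCGGAAG, a motif of ETS factors, was in 0 of 20, against 6.91% of all windows, and in 0 of the 17 windows found for 11 of the 15 genes lowest against cluster 2. Both strands were searched. Such a match is a description of the letters only. The window before Fam189a1, at chr7:65156529-65156778 on the minus strand (GRCm38.p6), is shown because this gene had the largest ratio over cluster 2, with its match to GCCNNNGGC in capitals.
Fam189a1 upstream: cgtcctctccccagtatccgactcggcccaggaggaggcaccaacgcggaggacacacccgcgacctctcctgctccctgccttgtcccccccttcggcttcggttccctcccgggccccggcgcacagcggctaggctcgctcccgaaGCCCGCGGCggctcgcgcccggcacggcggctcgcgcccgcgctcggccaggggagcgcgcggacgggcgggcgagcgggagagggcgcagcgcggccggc

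Genes at the other end of the contrast belonged to cluster 2. The 15 named genes with the lowest ratios, chosen by these ratios where both sides reached 500 counts together, were 7.23-fold to 10.02-fold lower in cluster 3, and all 15 were highest in cluster 2 of the 11 clusters. Lipc, hepatic lipase, stood at 705 CPM in cluster 3, 5467 CPM in cluster 2 and 28.7 to 501 CPM in the 9 other clusters. Lef1, a transcription factor of WNT signalling, stood at 178 CPM in cluster 3, 1289.6 CPM in cluster 2 and 23.4 to 344 CPM in the 9 other clusters. Etv4 stood at 34.3 CPM in cluster 3, 258 CPM in cluster 2 and 3.19 to 66.2 CPM in the 9 other clusters. Cluster 3 held a small part of the level of cluster 2 in all 3. Bmp7, a growth factor of the BMP family, stood at 11.6 CPM in cluster 3, 89.4 CPM in cluster 2 and 2.25 to 29.96 CPM in the 9 other clusters. In these 4 genes cluster 3 was closer to the other clusters than to cluster 2. Ntsr1, the neurotensin receptor, stood at 10.5 CPM in cluster 3, 77.9 CPM in cluster 2 and 0 to 8.30 CPM in the 9 other clusters. Gria2 stood at 136 CPM in cluster 3, 1007 CPM in cluster 2 and 17.5 to 121 CPM in the 9 other clusters. Actg2, a smooth muscle actin, stood at 92.9 CPM in cluster 3, 689 CPM in cluster 2 and 8.29 to 85.4 CPM in the 9 other clusters. Cluster 3 was not the lowest cluster in any of these. Tecta, a protein of extracellular gels, stood at 21.97 CPM in cluster 3, 177 CPM in cluster 2 and 1.79 to 23.5 CPM in the 9 other clusters. Nell1, a relative of the ROS1 ligand NELL2, stood at 8.21 CPM in cluster 3, 66.6 CPM in cluster 2 and 1.30 to 8.54 CPM in the 9 other clusters. Together the 15 genes summed to 1992 CPM in cluster 3, 15428 CPM in cluster 2 and 393 to 1704 CPM in the 9 other clusters, so cluster 3 held 12.9% of the level of cluster 2 and lay above the highest of the 9. Cluster 3 was above all of the 9 other clusters in 5 of these 15 genes.

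**Figure D4:**
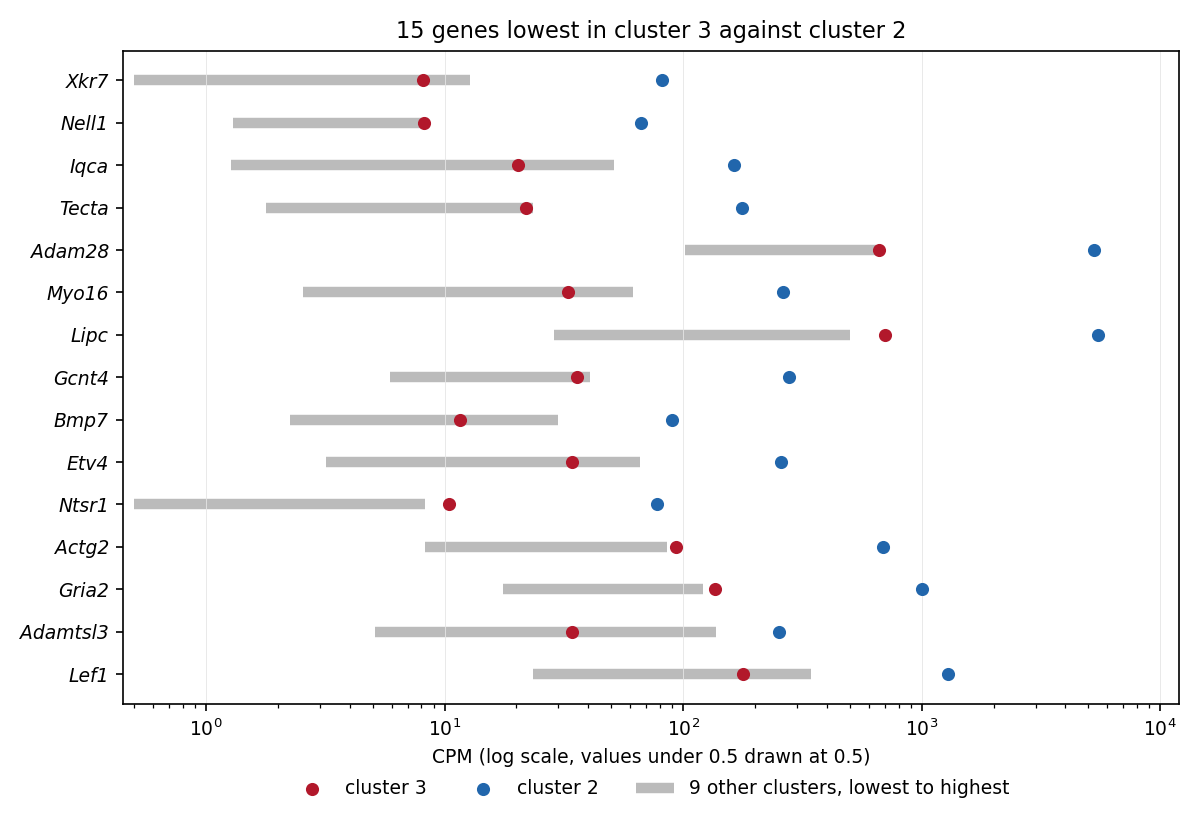
CPM (log axis) of the 15 named genes lowest in cluster 3 against cluster 2, with cluster 3 in red, cluster 2 in blue and grey bars from the lowest to the highest of the 9 other clusters. The blue point lies right of the bar in every row, and the red point near or within its upper end.

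Lipocalin genes next to each other had opposite patterns. Lipocalins are small secreted carriers of lipids and other hydrophobic molecules, and a cluster of them on chromosome 2 is used mainly in the duct. Lcn8 (chr2:25653120-25656217) and Lcn5 (chr2:25657952-25661977, both on the plus strand, GRCm38, GENCODE M21) lie 1.74 kb apart. Lcn8 stood at 587 CPM in cluster 3 and 3858 CPM in cluster 2, and Lcn5 at 3502 CPM in cluster 3 and 279 CPM in cluster 2. Lcn8 was thus 6.57-fold lower and its neighbour Lcn5 12.5-fold higher in cluster 3. Lcn6 and Lcn10, 1.12 kb apart, also differed, with Lcn6 1.69-fold higher and Lcn10 3.81-fold lower. Lcn12 (175 CPM in cluster 3 and 26.2 CPM in cluster 2) and Ptgds (79.96 CPM in cluster 3 and 21.7 CPM in cluster 2) were higher in cluster 3, by 6.66-fold and 3.69-fold, and Lcn9 (461 CPM in cluster 3 and 3163 CPM in cluster 2) was 6.86-fold lower. Of 8 lipocalins, Lcn2 among them at 59.8 CPM in cluster 3 and 107 CPM in cluster 2, 3 were higher, 3 lower and 2 between. Their median log2 ratio was -0.04. Over all genes 10.2% were higher and 6.16% lower.

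The bases before the start of these 2 neighbours are shown because the genes split between the clusters at so short a distance. They are 250 bases each from RefSeq (GRCm38.p6, plus strand), at chr2:25657702-25657951 for Lcn5 and chr2:25652868-25653117 for Lcn8, and neither holds GCCNNNGGC or CCGGAAG on either strand.
Lcn5 upstream: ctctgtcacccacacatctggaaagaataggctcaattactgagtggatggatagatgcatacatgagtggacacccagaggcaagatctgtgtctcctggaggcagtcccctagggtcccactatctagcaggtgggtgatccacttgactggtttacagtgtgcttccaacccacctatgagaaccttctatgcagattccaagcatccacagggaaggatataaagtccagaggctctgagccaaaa
Lcn8 upstream: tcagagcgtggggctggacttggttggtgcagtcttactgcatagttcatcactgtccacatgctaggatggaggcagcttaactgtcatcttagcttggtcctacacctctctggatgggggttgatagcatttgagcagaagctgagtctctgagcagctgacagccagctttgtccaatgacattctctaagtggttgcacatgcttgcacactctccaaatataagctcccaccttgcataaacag

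**Figure D5:**
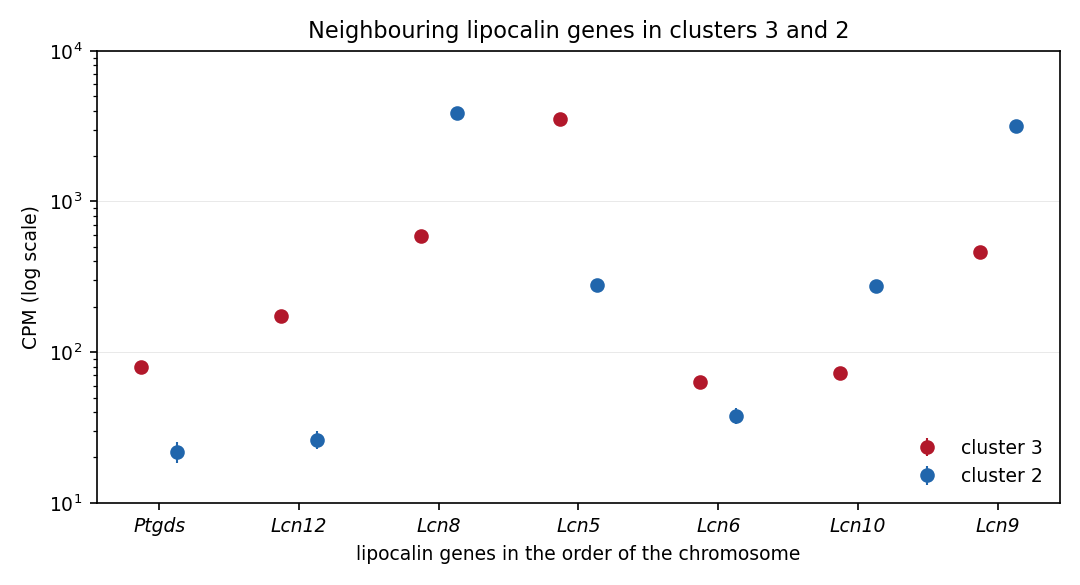
CPM (log axis) of 7 lipocalin genes in their order on chromosome 2, with cluster 3 in red and cluster 2 in blue and exact Poisson 95% intervals as bars. Lcn8 stands at 587 CPM in cluster 3 and 3858 CPM in cluster 2, and Lcn5, next to it, at 3502 and 279 CPM.

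The ADAM genes Adam7, Adamdec1 and Adam28 lie in this order on chromosome 14, with gaps of 29.6 kb and 23.9 kb. Adam7 stood at 4512 CPM in cluster 3 and 4653 CPM in cluster 2, while Adam28, at chr14:68606027-68655842, and Adamdec1 between them, at 4.41 CPM in cluster 3 and 25.7 CPM in cluster 2, were 7.96-fold and 5.82-fold lower in cluster 3. Of 14 ADAM genes with enough counts 1 was higher in cluster 3 than in cluster 2, Adam33 at 24.9 CPM in cluster 3 and 7.66 CPM in cluster 2, 2 were lower and 11 between. Adam10, the widely used sheddase, stood at 436 CPM in cluster 3 and 414 CPM in cluster 2. Of the related scaffolds of Cnksr2 and Frmpd4, Cnksr1 and Cnksr3 stood at 8.72 and 45.98 CPM in cluster 3, and Frmpd1, Frmpd2 and Frmpd3 each at under 2 CPM. Among 11 synaptic partners of such scaffolds 0 were higher in cluster 3 than in cluster 2, 2 were lower and 9 between. Dlgap1, which binds the PSD-95 family, stood at 574 CPM in cluster 3, 561 CPM in cluster 2 and 28.05 to 244 CPM in the 9 other clusters and so marked both duct clusters.

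Genes of FGF receptor and ERK signalling were mostly lower in cluster 3 than in cluster 2. Of 17 such genes 0 were over 2-fold higher, 11 were lower and 6 lay between, with a median log2 ratio of -1.55, against 6.16% lower over all genes. The ETS factors Etv1 (5.80-fold lower), Etv4 and Etv5 led the list, and the feedback inhibitors of ERK followed. Dusp4, Dusp5 and Dusp6, phosphatases of ERK, were 5.62-fold, 3.73-fold and 5.58-fold lower, Spry1 and Spry4, inhibitors of receptor kinase signalling, 4.04-fold and 2.92-fold lower, and Spred1 and Spred2 2.49-fold and 3.17-fold lower. Several of these rest on low levels, as Dusp6 stood at 6.26 CPM in cluster 3 and 34.9 CPM in cluster 2 and Spry4 at 1.64 CPM in cluster 3 and 4.80 CPM in cluster 2. Of the receptors, Fgfr2 stood at 665 CPM in cluster 3 and 469 CPM in cluster 2, Egfr at 132 CPM in cluster 3 and 79.4 CPM in cluster 2, and Fgfr1 at 51.5 CPM in cluster 3 and 66.8 CPM in cluster 2, within 2-fold of each other in the 2 clusters, and Fgfr3 at 3.80 CPM in cluster 3 and 8.57 CPM in cluster 2. Against the pooled other clusters 0 of the 17 were higher, 6 lower and 11 between. This list shares Etv4, Etv5 and Dusp6 with the initial segment list.

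Of the ROS1 pathway, Ovch2 was over 2-fold lower in cluster 3 than in cluster 2, Ros1 was within 2-fold, and Ptpn6, a phosphatase that acts on ROS1, stood at 11.1 CPM in cluster 3 and 8.70 CPM in cluster 2. Nell2, the ligand from the testis, was at 0.821 CPM in cluster 3 and 1.17 CPM in cluster 2, from 8 counts in cluster 3.

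Of 8 genes of steroid hormone action with enough counts, 0 were over 2-fold higher in cluster 3 than in cluster 2, 1 (Srd5a1) was lower and 7 lay between. Srd5a2, a steroid 5-alpha-reductase like Srd5a1, stood at 179.8 CPM in cluster 3 and 94.2 CPM in cluster 2, and Fkbp5, a chaperone and target of steroid receptors, at 1054 CPM in cluster 3 and 744 CPM in cluster 2, against 265 to 655 CPM in the 9 other clusters.

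Protease inhibitors were higher in cluster 3. Of 5 listed inhibitors with enough counts 4 were over 2-fold higher in cluster 3 than in cluster 2 and 1 lay between. All 5 were higher than in the pooled other clusters. The shares of all genes that were higher in these contrasts were 10.2% and 11.3%. Spink11, a Kazal-type inhibitor, stood at 424 CPM in cluster 3, 43.2 CPM in cluster 2 and 40.6 to 399 CPM in the 9 other clusters, and was 9.82-fold (8.78 to 11.01) higher. Spink8 stood at 244 CPM in cluster 3, 34.1 CPM in cluster 2 and 21.04 to 243 CPM in the 9 other clusters, and was 7.16-fold (6.30 to 8.17) higher. In both, cluster 5 nearly reached the level of cluster 3. Serpina16 had 58 counts in cluster 3 and 0 in cluster 2. Of the cystatins, inhibitors of cysteine proteases, 4 of 6 were lower and none of the 6 higher, Cst12 among them at 12.4 CPM in cluster 3 and 64.4 CPM in cluster 2.

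Families taken by their symbol, after their values had been seen, partly repeat these counts. The Spink family holds Spink8, Spink10, Spink11 and Spink12 of the list above. Of 8 Kazal inhibitors (Spink) 6 were over 2-fold higher in cluster 3 than in cluster 2 and 0 lower, and of 6 WFDC inhibitors 5 were higher and 0 lower. Wfdc8, of the whey acidic protein type, stood at 1678 CPM in cluster 3, 209 CPM in cluster 2 and 34.7 to 377 CPM in the 9 other clusters, and was 8.05-fold (7.64 to 8.48) higher. Of 6 Pate genes 4 were higher and 2, Pate5 and Pate10, lower. Over all genes 10.2% were higher and 6.16% lower. Serpina1f, a relative of alpha-1-antitrypsin, stood at 164 CPM in cluster 3, 13.4 CPM in cluster 2 and 4.33 to 128 CPM in the 9 other clusters.

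Beta-defensins, small cationic peptides that act on microbes and coat sperm, are given by chromosome, with no test of a difference between chromosomes, and the family was picked after its values were seen. Of 24 with enough counts 13 were over 2-fold higher in cluster 3 than in cluster 2, 5 lower and 6 between. Over all genes 10.2% were higher and 6.16% lower. On chromosome 8, 8 of 9 were higher and 0 lower, and these 9 summed to 1301 CPM in cluster 3 and 182 CPM in cluster 2. Defb15 stood at 523 CPM in cluster 3, 60.5 CPM in cluster 2 and 55.8 to 578 CPM in the 9 other clusters, 8.64-fold over cluster 2. Defb12 stood at 398 CPM in cluster 3, 68.01 CPM in cluster 2 and 16.3 to 115 CPM in the 9 other clusters, 5.86-fold over cluster 2. Defb39 stood at 95.6 CPM in cluster 3, 14.02 CPM in cluster 2 and 8.07 to 98.2 CPM in the 9 other clusters, 6.82-fold over cluster 2. On chromosome 14, 1 of 4 was higher and 2 lower. Defb48 there stood at 233 CPM in cluster 3, 1615 CPM in cluster 2 and 70.8 to 685 CPM in the 9 other clusters, and was 6.92-fold (6.61 to 7.24) lower, while Defb30 stood at 399.9 CPM in cluster 3 and 155 CPM in cluster 2. On chromosome 2, 4 of 9 were higher, 3 lower and 2 between, with Defb25 at 67.2 CPM in cluster 3 and 346 CPM in cluster 2 and Defb21 at 72.98 CPM in cluster 3 and 24.01 CPM in cluster 2, and both on chromosome 1 lay between. Reads from closely similar defensin copies may be split or shared in the authors' counting. In Defb15, Defb39 and Defb48 cluster 5 exceeded cluster 3.

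Transport genes were mostly within 2-fold of cluster 2 or lower. Of 13 with enough counts 1 was higher in cluster 3, Slc9a2, a sodium and proton exchanger, at 80.99 CPM in cluster 3 and 28.8 CPM in cluster 2, 4 were lower and 8 between. The lower ones were Cftr, Slc4a4, a bicarbonate cotransporter (2.47-fold), Slc1a1, a glutamate transporter (3.22-fold), and Car2, a carbonic anhydrase (2.45-fold). Of 12 junction genes 3 were higher, 4 lower and 5 between. For both lists the shares over all genes were 10.2% higher and 6.16% lower. Cdh16, a cadherin of kidney and duct epithelium, was 6.44-fold (4.85 to 8.72) higher, and Cldn3 and Cldn8, claudins of tight junctions, 2.16-fold and 4.10-fold higher. Cldn1, Cldn4 and Cldn10 were lower by 2.04-fold to 3.68-fold, and Cdh1 was lower by the ratio given above.

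Cluster 7, another epithelial cluster of the library, shared few of the segment genes. It carries Tinag, Kl and Esr1 and the efferent duct list, and all 6 efferent duct genes with enough counts were lower in cluster 3. Over the 13155 genes that reached 50 counts against cluster 7, 18.3% were over 2-fold higher and 10.4% lower in cluster 3 than in cluster 7, with a median log2 ratio of 0.14. Of 11 caput genes 10 were higher, of 12 initial segment genes 8 were higher and 0 lower, and of 12 general duct genes 2 were higher, 1 lower and 9 between. Esr1, the estrogen receptor that controls fluid uptake in efferent ducts, stood at 479.9 CPM in cluster 3 and 3978 CPM in cluster 7, and Lrp2, an endocytic receptor, at 53.7 and 935 CPM. Of the genes highest over cluster 7, Cntn5, a neural adhesion protein, stood at 808 CPM in cluster 3, 235 CPM in cluster 2 and 17.8 CPM in cluster 7, and Ism1, a secreted protein, at 704, 136 and 16.6 CPM.

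The other 2 libraries were not used to choose the cluster, and most of its 20 leading genes had lower levels there. In Ctrl the 20 leading genes were all listed, and cluster 8 was the highest cluster for 12 of them, and for 10 of the 18 with at least 50 counts, against 7.38% of all genes with 50 counts. They summed to 1207 CPM there, against 19803 CPM in cluster 3 of Mid_Ob. Cluster 8 was also the highest cluster of Ctrl for Cnksr2 (118 CPM), Adam7 (127 CPM), Adam28 (77.3 CPM) and Lcn8 (47.7 CPM), genes shared with or higher in cluster 2 of Mid_Ob. It was the highest for 6 of the 15 genes highest over cluster 2 and for 4 of the 15 lowest. The 15 highest summed to 532 CPM there and 765 CPM in cluster 6 of Ctrl, and the 15 lowest to 291 CPM there and 604 CPM in cluster 13. In 3 of the 20 the highest cluster of Ctrl exceeded cluster 3 of Mid_Ob. Cpne5 reached 232 CPM in cluster 14 of Ctrl, against 114 CPM in cluster 3 of Mid_Ob. Ryr3 reached 177 CPM in cluster 7 of Ctrl, against 71.2 CPM, and Prdx6b 126 CPM in cluster 12 of Ctrl, against 56.5 CPM. In Ob 15 of the 20 were listed, and cluster 17 was the highest for 8, and for 4 of the 9 with at least 50 counts, against 11.8% of all genes, with a sum of 359 CPM against 12326 CPM for the same 15 genes in cluster 3 of Mid_Ob, and in 0 of the 15 did a cluster of Ob exceed it. Frmpd4 made up most of both sums, at 766 CPM in cluster 8 of Ctrl and 254 CPM in cluster 17 of Ob. Both of these clusters and cluster 11 of Mid_Ob, at 1187 CPM of Frmpd4, carry ciliated cell genes, with sums of 1094, 1089 and 2538 CPM, while cluster 3 of Mid_Ob stood at 46.1 CPM. Clusters 7, 12 and 13 of Ctrl had sums of 1542, 1137 and 1697 CPM of these genes with Frmpd4 between 6.89 and 19.4 CPM, and cluster 7 of Mid_Ob a sum of 529 CPM with Frmpd4 at 155 CPM. Lcn5 reached 22.3 CPM, Pate13 25.1 CPM and Tfap2b 22.99 CPM in cluster 8 of Ctrl, and the table of Ob does not list these 3 genes. With 1 library per group, the diet and how much of the duct came with the fat cannot be told apart.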

How the data were processed

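Nuclei of epididymal fat, pooled from 8 mice in each of Ctrl, Mid_Ob and Ob, were read on the 10x Genomics platform. Per the study's methods the authors used Cell Ranger, with versions, genome build and annotation not given in the sources used here. The signal values deposited by the authors are mean counts, the summed UMIs of a gene in a cluster over the summed size factors of its nuclei. The tables also hold log2 fold changes of a cluster against the rest of its library and adjusted p-values that take nuclei as replicates, and neither was used. Whole UMIs were recovered from the smallest step of each column (100% of values within 0.001 counts of a whole number), and CPM was taken on the cluster total. With 1 library per group a count test over samples could not be run.

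Ratios have conditional binomial (Clopper-Pearson) intervals, levels exact Poisson and shares exact binomial intervals, all at 95%. Against 0 counts a floor of 3 per cluster was used. Gene identifiers were matched to GENCODE M21 of GRCm38 (29593 of 29625, 99.9%). Doublet removal and a limit on mitochondrial RNA are named in the study's methods, but whether the tables precede them is not stated. The tables list no barcodes, so nuclei and shared barcodes could not be counted. The clusters kept the authors' numbers and were named from marker lists.

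The cluster, the 31 gene lists and the named genes were chosen with earlier results of these data known. Named were the 4 label genes, the 20 highest ratios over the other clusters with 500 counts in cluster 3, the 15 highest and 15 lowest over cluster 2 and the 10 highest over cluster 7 with 500 counts in the pair, up to 6 members of each list by counts, and the 10 genes with most counts. Genes with no proper symbol were left out, and 1 list member is not reported here. Examples in the text come from these, while further list members, families taken by symbol and their members were picked after their values were seen. Simulated counts for the 26353 genes of Mid_Ob were used to test both steps. They were Poisson counts with each gene at its library level in every cluster, apart from genes changed on purpose in cluster 3. Recovery was exact for 100% of counts, and the intervals held the true ratio for 95.5%, 95.4% and 95.9% of genes against the other clusters, cluster 2 and cluster 7. The simulation used the same counting model as both steps, so it checks the code and not the spread between nuclei or mice. Alternatives were other count minimums, scaling, weights, cluster sets and a subtracted background. The work was done in Python 3.11.15 with pandas 2.3.3, numpy 2.4.6, scipy 1.17.1 and, for plots, matplotlib 3.10.9.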

Additional observations from a re-analysis of the deposited data

How the results depend on the processing

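No paired analysis was possible because each group is 1 library, and for the same reason no replicate could be left out. Against the other clusters 2003 genes were over 2-fold higher and 3765 lower in cluster 3. A minimum of 500 counts gave 1015 higher and 2003 lower, and subtracting the CPM of cluster 1 as a background gave 4235 higher. Against cluster 2 the counts of 1452 higher and 875 lower became 2539 and 1405 at a minimum of 10 counts, 494 and 379 at 500 counts, and 3632 and 2213 after subtraction. Against cluster 7 the counts of 2406 higher and 1366 lower became 728 and 383 at 500 counts, and the lower count became 2256 at 10 counts and 2942 after subtraction. The minimum sets how many genes are tested, and values after subtraction depend on the floor of 3 counts. Scaling by the median of gene ratios shifted log2 ratios by 0.12 against cluster 2 and 0.14 against cluster 7, and the split against cluster 2 became 1274 higher and 1007 lower. Leaving cluster 2 out of the pooled other clusters gave 6 initial segment genes higher and 1 lower, and 10 duct epithelium genes higher. A limit of 1.5-fold against cluster 2 gave 5 caput genes higher and 2 duct epithelium genes higher. The share of UMIs in cluster 3 was 16.914% without mitochondrial genes and 17.0332% without cluster 5. No label gene ratio past 2-fold as reported changed its sign under an alternative. The log2 ratio of Adam28 over the other clusters, -0.67 as reported, ran from -2.18 to 1.45, the upper end without cluster 2, and that of Frmpd4 over cluster 2 from 3.08 to 5.21. After subtraction the log2 ratio over the other clusters came to 0.61 for Ros1, under 2-fold, against 1.29 as reported, and to 15.2 for Frmpd4, against 3.66. Over the 4 label genes and their 3 contrasts, 49 alternative values lay within the 95% counting interval of the reported ratio and 23 outside it. The values at minimums of 10 and 500 counts are among the 49 and could not move. A count minimum does not change the ratio of a single gene. Genes with under 50 counts in the pair were not counted as higher or lower.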

Other observations

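Genes and families in the next 3 paragraphs were picked after their values were seen, and most are not specific to the duct. Ion channels and receptors best known from neurons were among the genes highest in cluster 3 over cluster 2. Of 42 potassium channel genes (Kcn) with enough counts, 17 were over 2-fold higher in cluster 3 than in cluster 2, 4 lower and 21 between, against 10.2% of all genes higher. Over the pooled other clusters 20 of 56 were higher and 17 lower, against 11.3% and 21.2% of all genes. Kcnh8 stood at 275 CPM in cluster 3, 24.9 CPM in cluster 2 and 4.33 to 312 CPM in the 9 other clusters, with cluster 11 the highest. Kcnc2 stood at 168 CPM in cluster 3, 24.01 CPM in cluster 2 and 12.4 to 588 CPM in the 9 other clusters, with cluster 7 the highest. Kcna1 stood at 70.9 CPM in cluster 3, 9.22 CPM in cluster 2 and 1.41 to 20.1 CPM in the 9 other clusters, and was highest in cluster 3. Of 4 GABA-A receptor subunit genes 2 were higher than in cluster 2 and 2 between, but over the pooled other clusters 2 of 7 were higher and 4 lower. Gabrb1 stood at 876 CPM in cluster 3, 60.1 CPM in cluster 2 and 22.3 to 391 CPM in the 9 other clusters, and was 14.6-fold (13.3 to 16.05) higher than in cluster 2, and Gabra4 was 20.2-fold (14.1 to 29.9) higher. Of 18 semaphorin genes, which encode guidance proteins, 4 were higher, 5 lower and 9 between, Sema5b among the higher ones at 17.02-fold.

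Transcription factors separated the 2 duct clusters in both directions. Besides Tfap2b, Tfap2a stood at 122 CPM in cluster 3, 62.9 CPM in cluster 2 and 3.25 to 56.3 CPM in the 9 other clusters, and Tfap2c at 14.7 CPM in cluster 3 and 1.43 CPM in cluster 2. Dach2, a factor of the retinal determination network, stood at 227 CPM in cluster 3, 50.5 CPM in cluster 2 and 6.85 to 75.2 CPM in the 9 other clusters. The T-box factors Tbx2, Tbx3 and Tbx22 were 2.26-fold, 2.46-fold and 6.04-fold higher in cluster 3 than in cluster 2. Runx1 and Runx2, factors known from blood and bone, were lower in cluster 3. Runx2 stood at 215 CPM in cluster 3, 1204 CPM in cluster 2 and 33.1 to 414 CPM in the 9 other clusters, and was 5.60-fold (5.34 to 5.88) lower. Runx1 stood at 300.0 CPM in cluster 3, 1011 CPM in cluster 2 and 63.8 to 1121 CPM in the 9 other clusters, with the macrophage-like cluster 4 the highest.

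Membrane transport and surface proteins gave further differences. Slc16a10, a carrier of aromatic amino acids, stood at 2239 CPM in cluster 3, 139.8 CPM in cluster 2 and 118 to 652 CPM in the 9 other clusters, and was 16.02-fold (15.1 to 17.04) higher than in cluster 2. Slc38a5, a carrier of glutamine and related amino acids, stood at 763 CPM in cluster 3, 91.9 CPM in cluster 2 and 70.2 to 623 CPM in the 9 other clusters, with cluster 5 the highest of the others. All 4 Nxpe genes with enough counts were over 2-fold higher than in cluster 2, Nxpe4 among them at 485 CPM in cluster 3, 39.5 CPM in cluster 2 and 20.4 to 252 CPM in the 9 other clusters. Enpp2, autotaxin, ran against its relative Enpp1 and stood at 104 CPM in cluster 3, 531 CPM in cluster 2 and 31.6 to 250.3 CPM in the 9 other clusters.

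Of the 10 genes with most counts in cluster 3, 6 were within 2-fold of cluster 2, 4 were over 2-fold higher and 0 lower. Zbtb20, a zinc finger repressor, stood at 10415 CPM in cluster 3, 8077 CPM in cluster 2 and 2075 to 5423 CPM in the 9 other clusters. Man1a, a mannosidase of the Golgi, stood at 5634 CPM in cluster 3, 3426 CPM in cluster 2 and 465 to 1196 CPM in the 9 other clusters. Auts2 stood at 3769.6 CPM in cluster 3, 3271 CPM in cluster 2 and 261 to 2792 CPM in the 9 other clusters. These 3 were within 2-fold in both clusters. Ap1s2, a subunit of a clathrin adaptor, stood at 2777 CPM in cluster 3, 1290.1 CPM in cluster 2 and 139 to 764 CPM in the 9 other clusters, and was over 2-fold higher than in cluster 2.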
